A study of Mus musculus with 28 samples.

Results

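Late in the reprogramming of mouse fibroblasts, cells that had gained the surface antigen SSEA1 were compared with cells that had lost the fibroblast protein Thy1 but had not gained SSEA1. The arrays titled Day9_SSEA1+ and Day12_SSEA1+ were set against Day9_Thy- and Day12_Thy-, each day by itself, which made 4 of the 28 arrays of the series and 4 of the 24 in the table used here. The remaining arrays of that table held the same fractions on days 3 and 6, the Thy1-positive fraction (Thy+) of each day, GFP+ cells of day 12, iPS cells and the starting mouse embryonic fibroblasts (MEFs), in 15 groups in all. Per the labels, SSEA1+ cells were negative for Thy1 and positive for SSEA1, Thy- cells were negative for both, and all 4 late arrays were GFP-negative (the labels do not say which gene the GFP reports on). Each late fraction had 1 array a day, from the replicate named M2. The labels do not say what M2 and M3 stand for, nor that arrays of one group came from separate embryos or cultures, so the p-values cover the spread from array to array and that spread could be technical.

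All cells came from fibroblasts of a C57BL6/129 strain in which doxycycline drives the OKSM cassette, a single transgene for Oct4, Klf4, Sox2 and c-Myc, through the transactivator of a Rosa26-M2rtTA allele. The embryos had 1 copy of cassette and transactivator (het/het) or 2 (ho/ho), and the labels do not give the copy number behind each array. Doxycycline, serum and LIF were present in the medium of both fractions, and cells were stained for Thy1.2 and SSEA-1 and separated by flow cytometry. The cassette is expressed throughout a culture, while only some cells go on to activate the endogenous pluripotency network. Along that route fibroblasts first lose mesenchymal genes and gain epithelial ones, then switch on Nanog and its partners, and only late express genes such as Sox2 and the Dppa family. SSEA1 is a carbohydrate antigen of mouse embryonic stem cells that appears early on that route. The comparison asks what separated cells with this antigen from cells of the same day that had lost Thy1 without gaining it.

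The transcripts of the sorting markers were read first. Fut9, the fucosyltransferase that makes the SSEA1 epitope, had log2 signals of 6.21 on day 9 and 6.41 on day 12 in SSEA1+ cells, against 4.84 and 4.40 in Thy- cells. The difference averaged over the days was 1.69 (SE 0.23, adjusted p = 0.000477, limma), and the Thy+ arrays of these days stood at 3.44 and 3.46. Thy1 had log2 signals of 8.88 and 8.18 in SSEA1+ cells on days 9 and 12, against 9.21 and 8.67 in Thy- cells. Both fractions lay below the 2 late Thy+ arrays, at 11.55 and 11.44, and above the iPS mean of 6.53, and their difference did not pass the test (-0.41, SE 0.26, adjusted p = 0.354). The marker transcripts therefore followed both labels, with Thy1 RNA still above its iPS level in the 2 negative fractions. The RNA controls of the 4 arrays were as follows. The 3′ minus 5′ log2 difference was 0.836 and 1.02 for Actb in SSEA1+ cells, against 0.883 and 0.885 in Thy- cells, and 0.818 and 0.829 for Gapdh, against 0.794 and 0.959. The 18S RNA signal stood at 10.8 on day 9 and 11.5 on day 12 in SSEA1+ cells, against 10.3 and 11.6 in Thy- cells, so it was higher on day 12 in both fractions. Its part in the comparison of the days was not tested.

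In the mean of days 9 and 12, some pluripotency regulators, epithelial genes and cell division genes were higher in SSEA1+ cells than in Thy- cells, and many matrix, protease and mesenchymal genes were lower. Averaged over days 9 and 12, 395 of 11807 genes (3.35%) differed by 2-fold or more at an adjusted p under 0.05, of which 79 were higher in SSEA1+ cells (0.669%) and 316 lower (2.68%). Genes that met both criteria are called changed below, and all differences are SSEA1+ minus Thy- on the log2 scale of the deposited signals. With 1 array per fraction and day, the error came from the replicated groups of the table, and the lone arrays are assumed to vary as these did. On day 9 alone 112 genes changed (0.949%: 48 higher, 0.407%, and 64 lower, 0.542%), and on day 12 alone 487 did (4.12%: 129 higher, 1.09%, and 358 lower, 3.03%). The day 9 count was 238 without the Day6_Thy+ M2 array in the fit, whose 3′ to 5′ control differences stood apart at 1.49 for Actb and 1.78 for Gapdh. Changes of both days numbered 75, which is 67.0% of the day 9 list and 15.4% of the day 12 list, and all 75 had one direction. Of the 395 genes, 392 had one sign on both days, and the other 3 were Spink1, Vtn and AW112010. Over all 11807 genes, 5122 were above 0 on both days and 3335 below 0. In 335 of the 395 the difference was larger on day 12, and 196 were at least 2-fold on both days (35 higher and 161 lower). These counts among the 395 are a description, since the same late arrays chose the genes. With bulk RNA, fewer cells of a kind and less RNA per cell cannot be told apart.

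**Figure D1:**
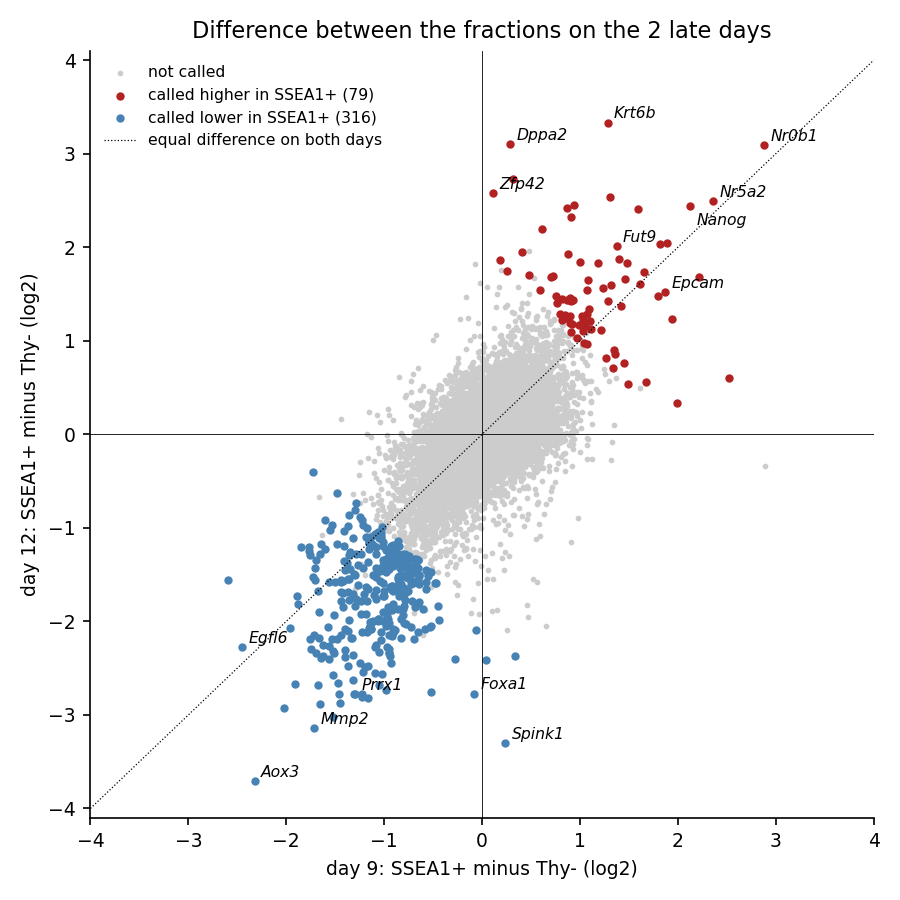
Difference between SSEA1+ and Thy- cells (log2) on day 9 (horizontal axis) and day 12 (vertical axis) for all 11807 genes. Red points are the 79 genes changed upwards and blue points the 316 changed downwards in the mean of both days; most blue points lie below the dotted line of equal difference, and Spink1 and Foxa1 lie near 0 on day 9 and far below 0 on day 12.

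Several genes not yet described were among the largest differences, all but Nefl outside the lists. Egfl6, a secreted EGF-like protein, stood at 5.72 and 5.70 in SSEA1+ cells of days 9 and 12, against 8.17 and 7.97 in Thy- cells (-2.36, SE 0.22, adjusted p = 3.31e-05). Tril, an accessory protein of Toll-like receptors, stood at 8.30 and 7.32 in SSEA1+ cells, against 9.82 and 10.34 in Thy- cells (-2.27, SE 0.13, adjusted p = 7.85e-07). Medag, an adipogenesis gene, and Ifi205, an interferon-inducible gene, differed by -2.29 and -2.27, and Tcim by -2.18. On day 9, the neurofilament gene Nefl stood at 7.26 in SSEA1+ cells, against 4.73 in Thy- cells (2.53, adjusted p = 0.0229), while on day 12 it read 7.91 in SSEA1+ cells and 7.31 in Thy- cells. Nos1, the neuronal nitric oxide synthase, read 7.47 and 5.48 on day 9 and 7.30 and 6.96 on day 12 in SSEA1+ and Thy- cells. The change of the difference between the days did not pass for Nefl (adjusted p = 0.759) or Nos1 (adjusted p = 0.818). On day 12, Trap1a differed by 2.73, Notch4, a Notch receptor, by 2.45, Ccnb1ip1, a meiotic crossover gene, by 2.42, and Cdo1, the cysteine dioxygenase, by -2.81.

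Among 30 measured pluripotency regulators 8 were higher in SSEA1+ cells and 0 lower, and their median difference was 0.63 against 0.07 over all genes. Nr0b1, which encodes the nuclear receptor Dax1 of embryonic stem cells, had the largest positive difference of the 11807 genes in the mean of the days. Its log2 signals were 9.17 and 9.75 in SSEA1+ cells of days 9 and 12, against 6.29 and 6.65 in Thy- cells (difference 2.99, SE 0.14, adjusted p = 1.26e-07). The gene was thus as far apart on day 9 as on day 12, and the Thy+ arrays stood at 5.14 and 5.00. Nr5a2, a nuclear receptor that can activate Oct4, stood at 6.93 and 7.50 in SSEA1+ cells, against 4.57 and 5.01 in Thy- cells (2.43, SE 0.20, adjusted p = 1.7e-05). Nanog, a core transcription factor of the pluripotent state, stood at 9.11 and 10.62 in SSEA1+ cells, against 6.98 and 8.18 in Thy- cells (2.28, SE 0.40, adjusted p = 0.00246). Eras, a Ras-like protein of embryonic stem cells, differed by 1.95 (SE 0.26, adjusted p = 0.000474) and Utf1, a chromatin-bound factor of stem cells, by 1.06. Pou5f1, the gene of Oct4, differed by 1.46 (SE 0.21, adjusted p = 0.000688), but its probe set may also read the cassette, as may those of Sox2 and Klf4. Nr0b1, Nr5a2, Nanog and Eras were at least 2-fold apart on each day.

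Other regulators, picked out here after their values were seen, differed little between the fractions on day 9 and more on day 12. Zfp42, the gene of the stem cell marker Rex1, stood at 3.36 in SSEA1+ cells of day 9, against 3.25 in Thy- cells, and at 6.82 on day 12, against 4.24. Dppa2, a chromatin factor of pluripotent cells, stood at 3.78 against 3.49 on day 9 and at 8.73 against 5.63 on day 12, SSEA1+ cells given first. On day 12 the differences of Zfp42 (2.58, adjusted p = 0.000385) and Dppa2 (3.10, adjusted p = 0.00278) passed the test, as did those of Dppa4 at 1.82, Esrrb at 1.58 and Tcl1 at 1.36. Dnmt3l, the catalytically inactive partner of the de novo DNA methyltransferases, had a similar course, with 4.95 in SSEA1+ cells and 4.69 in Thy- cells on day 9, and 7.36 and 5.61 on day 12. Of these 6 genes, the change in the difference between the days itself passed the test for Dppa4 alone.

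Thy- cells of day 12 were not without late regulators. Sox2, a partner of Oct4, stood at 3.88 in SSEA1+ cells and 3.87 in Thy- cells of day 9, and at 8.95 and 8.07 on day 12, where MEFs averaged 3.02 and the day 12 Thy+ array read 4.46. The difference in Sox2 did not pass the test (0.45, SE 0.43, adjusted p = 0.56). Lin28a, an RNA-binding protein of stem cells, read 4.72 and 3.98 on day 9 and 9.57 and 8.61 on day 12 in SSEA1+ and Thy- cells, a mean difference of 0.85 (SE 0.17, adjusted p = 0.00638) that lay under 2-fold. Otx2, a homeodomain factor of the epiblast, read 4.76 and 4.28 on day 9 and 9.09 and 8.54 on day 12 in SSEA1+ and Thy- cells, and did not pass. Sall4, a zinc finger protein of the Oct4 network, read 11.49 in SSEA1+ cells and 10.92 in Thy- cells of day 12. Sall4 and Dppa5a did not pass in the mean of the days (adjusted p = 0.204 and 0.245). Dppa5a read 6.23 and 5.75 on day 9 and 11.7 and 9.73 on day 12 in SSEA1+ and Thy- cells. Its mean difference was 1.22 with an SE of 0.635, so not passing does not show that the fractions were alike. Klf4 was lower in SSEA1+ cells by less than 2-fold (-0.65, adjusted p = 0.0288), and Tbx3, a T-box factor, was lower on day 9 by 1.05. On day 9, 4 of the 30 regulators were higher and 1 lower, and on day 12, 11 were higher and 0 lower.

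**Figure D2:**
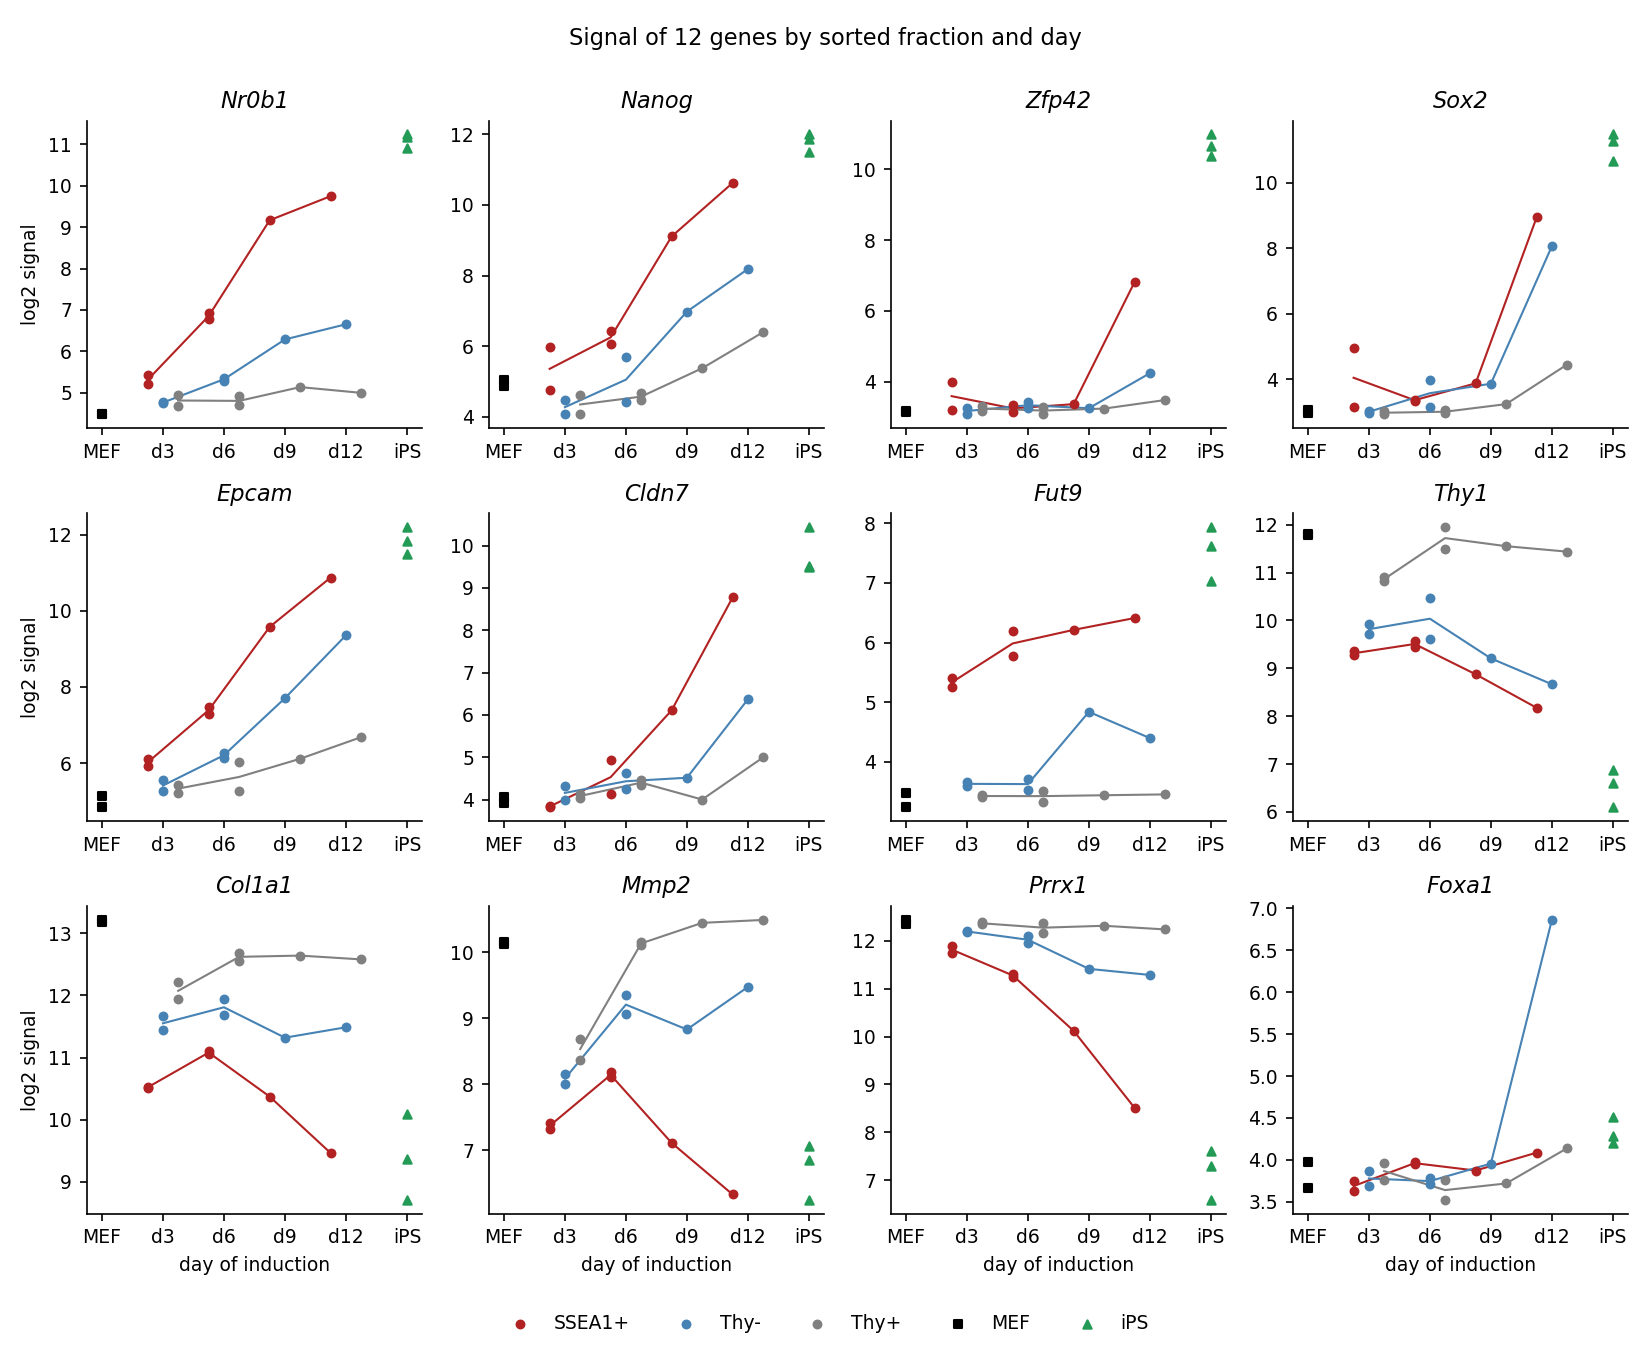
Log2 signal of 12 genes in each array of SSEA1+ (red), Thy- (blue) and Thy+ cells (grey) by day of induction, with MEFs (black squares) and iPS cells (green triangles); lines join the means. Nr0b1, Nanog and Epcam separate SSEA1+ from Thy- cells from day 6 to day 12, Sox2 stands at 8.95 and 8.07 in the 2 fractions on day 12, Mmp2 and Prrx1 remain high in Thy- cells, and Foxa1 is high on the day 12 Thy- array alone.

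Some epithelial genes were higher in SSEA1+ cells, and of these Epcam, Cldn7 and Esrp1 also read above the MEF mean on both Thy- arrays. Of 34 measured adhesion genes and regulators 6 were higher and 0 lower (median difference 0.56). Epcam, an adhesion protein of epithelial and stem cells, stood at 9.58 and 10.87 in SSEA1+ cells of days 9 and 12, against 7.70 and 9.35 in Thy- cells (1.70, SE 0.25, adjusted p = 0.000759). For Epcam iPS cells averaged 11.84 and MEFs 4.99, so the day 12 Thy- array lay nearer to iPS cells than to MEFs. Cldn7, a tight junction protein, stood at 6.11 and 8.78 in SSEA1+ cells, against 4.52 and 6.37 in Thy- cells (2.00, SE 0.29, adjusted p = 0.000828). Esrp1, the splicing factor that sets epithelial isoforms, stood at 6.21 and 8.88, against 4.40 and 6.84 (1.93, SE 0.19, adjusted p = 4.33e-05). The desmosomal gene Dsp, the grainyhead factor Grhl2 and Lsr, a protein of junctions between 3 cells, differed by 1.13, 1.63 and 1.11. Cdh1, the gene of E-cadherin, read 9.06 and 10.55 in SSEA1+ cells, against 8.71 and 9.61 in Thy- cells, and did not pass (0.65, SE 0.24, adjusted p = 0.11). Its difference was under 2-fold on each day. On both days 26 of the 34 were above Thy- cells and 1 was below, against 5122 and 3335 of all 11807 genes. The keratin genes Krt8 and Krt18 did not pass in the mean of the days. Krt8 read 9.07 and 6.18 on day 9 and 10.09 and 10.42 on day 12 in SSEA1+ and Thy- cells. Krt18 read 6.55 and 5.90 on day 9 and 8.99 and 11.03 on day 12, so both were higher in Thy- cells of day 12.

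The promoters of the epithelial genes Epcam, Cldn7 and Lsr, of Nanog and of Prrx1, the mesenchymal factor described below, are shown. Snail and Zeb proteins, repressors of epithelial genes, bind the E-box CAGGTG, and their part in the differences was not tested. The genes shown were chosen by hand, and the changed epithelial genes Esrp1, Dsp and Grhl2 are not among them. The sequences are RefSeq promoters (GRCm38.p6), from 250 bases before to 50 after the start site, 5′ to 3′ on the strand of the gene. Capitals mark CAGGTG or its reverse complement CACCTG and, in Nanog, also TTTGCAT, the core of the octamer bound by Oct4, and ACAATG, a Sox motif.
Epcam, chr17:87635729-87636028, plus strand: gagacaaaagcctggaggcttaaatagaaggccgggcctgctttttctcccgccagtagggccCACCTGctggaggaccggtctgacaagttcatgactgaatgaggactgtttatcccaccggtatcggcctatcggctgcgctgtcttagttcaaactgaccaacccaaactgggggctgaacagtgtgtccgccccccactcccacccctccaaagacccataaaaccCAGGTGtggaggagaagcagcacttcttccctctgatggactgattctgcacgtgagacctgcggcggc
Cldn7, chr11:69965171-69965470, plus strand: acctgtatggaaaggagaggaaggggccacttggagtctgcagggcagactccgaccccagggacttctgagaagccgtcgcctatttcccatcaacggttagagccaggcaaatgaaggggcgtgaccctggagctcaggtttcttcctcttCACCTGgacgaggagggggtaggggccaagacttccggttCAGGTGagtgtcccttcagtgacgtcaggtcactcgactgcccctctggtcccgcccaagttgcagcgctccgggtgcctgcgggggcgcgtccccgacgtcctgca
Lsr, chr7:30973420-30973719, minus strand: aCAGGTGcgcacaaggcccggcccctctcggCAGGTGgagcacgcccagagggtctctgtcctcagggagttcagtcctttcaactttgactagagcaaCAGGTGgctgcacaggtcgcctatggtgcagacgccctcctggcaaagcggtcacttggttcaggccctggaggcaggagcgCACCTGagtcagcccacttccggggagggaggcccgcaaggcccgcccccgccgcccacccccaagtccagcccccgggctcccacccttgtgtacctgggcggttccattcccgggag
Nanog, chr6:122707315-122707614, plus strand: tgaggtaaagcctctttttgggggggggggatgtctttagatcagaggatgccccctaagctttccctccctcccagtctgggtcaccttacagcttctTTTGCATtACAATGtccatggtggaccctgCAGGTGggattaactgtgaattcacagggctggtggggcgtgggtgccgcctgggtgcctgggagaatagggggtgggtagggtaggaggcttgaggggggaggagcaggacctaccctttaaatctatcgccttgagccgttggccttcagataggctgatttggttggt
Prrx1, chr1:163313601-163313900, minus strand: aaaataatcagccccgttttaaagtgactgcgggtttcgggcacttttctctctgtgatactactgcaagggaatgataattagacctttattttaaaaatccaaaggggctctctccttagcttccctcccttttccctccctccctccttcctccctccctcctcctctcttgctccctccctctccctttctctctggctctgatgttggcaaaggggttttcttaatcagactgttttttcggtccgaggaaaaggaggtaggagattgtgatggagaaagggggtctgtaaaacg
Epcam and the Cldn7 window shown hold 2 matches of the E-box each and Lsr 4, while these letters occur neither in the Prrx1 window nor in another Cldn7 promoter of the table (chr11:69964529-69964828), not shown. In Nanog the octamer core begins at -151 and the Sox motif at -143 from the start site, next to each other, with the E-box at -121.

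Of the 79 higher genes 61 had a promoter in the table (74 promoters, as some genes have several that can overlap), and of the 316 lower genes 220 had one (280 promoters). CAGGTG, searched on both strands, occurred in 25 of 74 promoters of higher genes (33.8%) and in 34 of 280 of lower genes (12.1%), against 19.4% of all 11986. TTTGCAT occurred in 9.46% and 8.21% of these promoters, against 3.85% of all, and ATTTGCAT, which contains it, in 5.41% and 3.93%, against 1.56%. ACAATG occurred in 13.5% and 6.79%, against 8.56% of all. The joined motif of Sox2 and Oct4, searched only as an exact string, occurred in 0 of all promoters. The Nanog promoter shown above, where the octamer core and the Sox motif adjoin, was not an exact match. The 0 therefore does not show that joined sites were absent. The other motifs, again with higher, lower and all promoters in that order, were the AP-1 site TGANTCA (6.76%, 7.86% and 6.67%), the TEAD site GGAATG (18.9%, 18.6% and 13.3%) and the TATA box TATAAA (12.2%, 15.0% and 10.2%). The Esrrb and Nr5a2 site TCAAGGTCA occurred in 1.35% and 0 of them, against 0.3% of all, and AGGTCA, which it contains, in 14.9% and 8.21%, against 13.8%. The Klf motifs CACCCNNCC (20.3%, 17.5% and 14.5%) and GGGCGTG (17.6%, 9.29% and 12.9%) and the grainyhead motifs AACCGGTT (0, 0 and 0.175%) and CCGGTT (16.2%, 5.0% and 9.62%), which lies within the longer one, complete the 14 searched. A match is a description of letters and not a binding site, and the base composition of the groups was not matched.

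Of the lists read, the extracellular matrix had the highest share of changed members. Of 34 measured, 21 were lower in SSEA1+ cells and 0 higher, with a median difference of -1.25. On day 9, 4 of them were lower, and on day 12, 22 were. Col1a1, the main fibrillar collagen, stood at 10.37 and 9.46 in SSEA1+ cells of days 9 and 12, against 11.32 and 11.49 in Thy- cells (-1.48, SE 0.29, adjusted p = 0.00572). SSEA1+ cells of day 12 were thus close to the iPS mean of 9.39 for Col1a1, while Thy- cells stayed between it and the MEF mean of 13.19. Aspn and Ogn, small leucine-rich proteoglycans, had differences of -2.16 and -2.07 (adjusted p = 7.23e-05 and 0.000251). Loxl1, a crosslinking enzyme of elastic fibres, stood at 7.66 and 6.98 in SSEA1+ cells, against 8.64 and 9.71 in Thy- cells (-1.86, adjusted p = 0.0012). Collagens V, VI, XI and XV, Fmod, Bgn, Dcn, Thbs2 and Vcan were among the other lower members, by 1.23 to 1.61.

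Some enzymes that remodel the matrix were lower as well. Of 17 measured proteases and inhibitors 6 were lower and 0 higher (median difference -0.94). Mmp2, the gelatinase of fibroblasts, stood at 7.11 and 6.33 in SSEA1+ cells, against 8.83 and 9.47 in Thy- cells (-2.43, SE 0.21, adjusted p = 1.99e-05). On day 12 this SSEA1+ level was below the iPS mean of 6.72, and the Thy- level was near the MEF mean of 10.14. Mmp14, the membrane protease that activates Mmp2, stood at 6.68 and 6.53 in SSEA1+ cells, against 8.35 and 8.71 in Thy- cells (-1.92, SE 0.20, adjusted p = 7.78e-05). Timp2, which takes part in that activation, was lower by 1.40, and Adamts5, which cleaves the proteoglycan aggrecan, by 1.52. Myl9 and Mylk, a light chain and a kinase of smooth muscle myosin, were the 2 lower genes among 14 contractile genes (-1.22 and -1.57), and 0 were higher.

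Of 28 mesenchymal transcription factors 5 were lower in SSEA1+ cells and 0 higher (median difference -0.40). Prrx1, a homeodomain factor of limb and fibroblast mesenchyme, stood at 10.12 and 8.51 in SSEA1+ cells of days 9 and 12, against 11.41 and 11.29 in Thy- cells (-2.04, SE 0.23, adjusted p = 0.000131). The Thy+ arrays stood at 12.31 and 12.24, so Thy- cells had kept Prrx1 within about 1 log2 unit of Thy+ cells. Snai2, the Slug repressor of epithelial genes, was lower by 1.06, and Prrx2, Runx1 and Ebf1 by 1.00, 1.00 and 1.17. Another Runx1 probe set had the opposite sign. Twist1 (-0.87) and Twist2 (-0.94) passed the test under 2-fold in the mean and were lower by at least 2-fold on day 12. Among 27 Hox genes, which record the body position of fibroblasts, Hoxc4 and Hoxc8 were lower (-1.07 and -1.65) and 0 were higher.

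**Figure D3:**
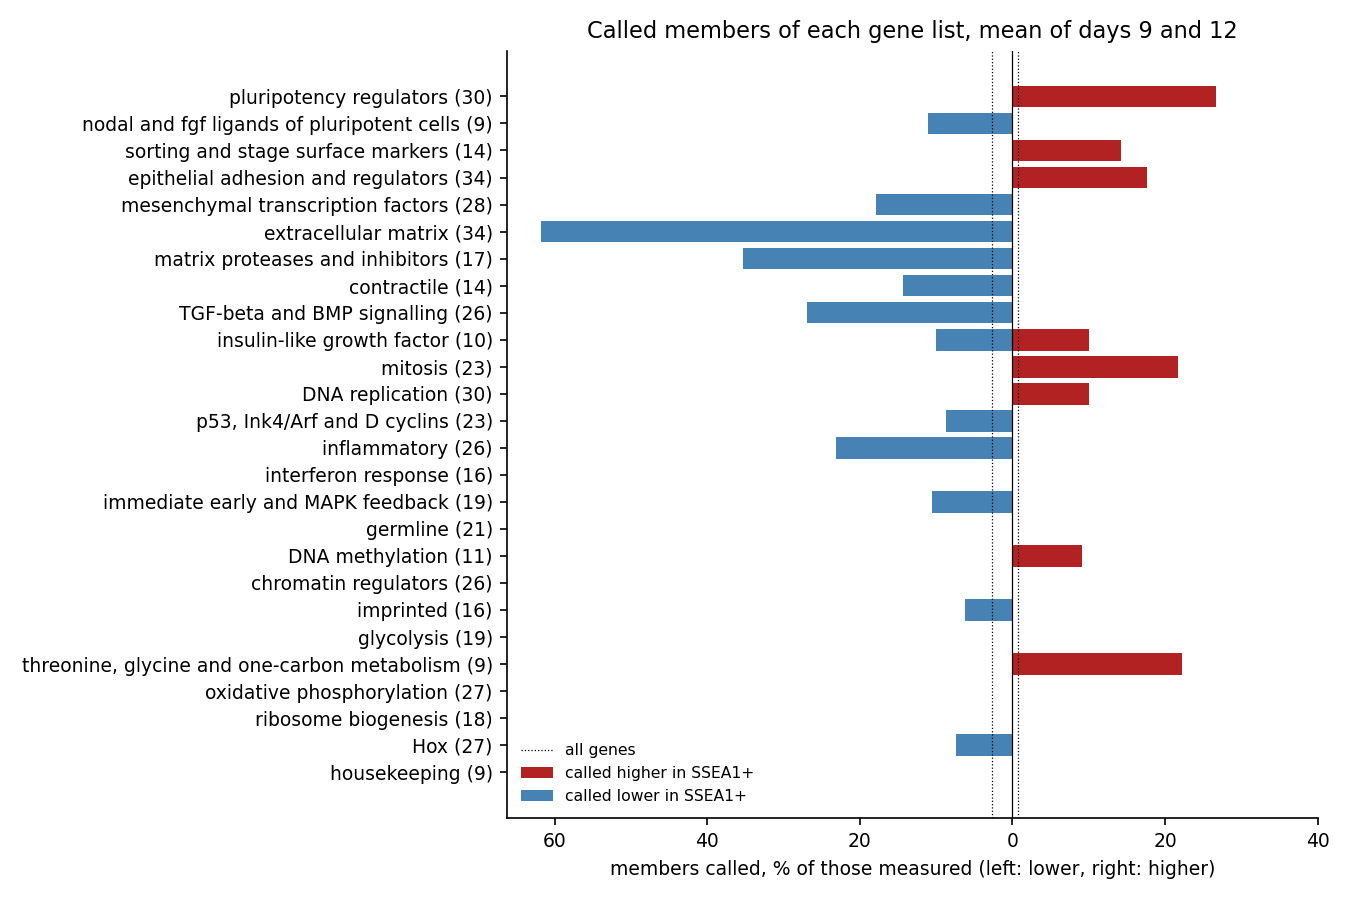
Share of the measured members of each gene list (number in brackets) that were changed in the mean of days 9 and 12, with those higher in SSEA1+ cells to the right (red) and those lower to the left (blue). Dotted lines mark the share of all genes, 0.669% higher and 2.68% lower; extracellular matrix has the longest bar, with 21 of 34 lower.

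Among secreted signals and their targets, most changed genes were lower in SSEA1+ cells. Of 26 genes of TGF-beta and BMP signalling 7 were lower and 0 higher (median difference -0.38). These were the ligand genes Tgfb3 (-1.29) and Inhba (-1.28), the activin antagonist Fst (-1.32), the latent TGF-beta binding protein Ltbp2 (-1.67), and the target genes Tgfbi (-1.57), Id1 (-1.08) and Id3 (-1.26). Tgfbi stood at 10.89 and 10.16 in SSEA1+ cells, against 12.01 and 12.17 in Thy- cells (SE 0.19, adjusted p = 0.000251). Bmp4 was the 1 changed gene among 9 nodal, FGF and BMP ligands, with 6.15 and 6.06 in SSEA1+ cells, against 7.44 and 7.82 in Thy- cells (-1.52, SE 0.25, adjusted p = 0.0017). In the insulin-like growth factor list of 10, the binding protein Igfbp2 was higher, at 9.83 and 11.43 against 7.89 and 10.20 (1.59, adjusted p = 0.00347), and Igfbp4 lower (-2.05, adjusted p = 0.00246), although another Igfbp4 probe set had the opposite sign.

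Of 26 inflammatory genes 6 were lower and 0 higher (median difference -0.77). They were the cytokines Il6 (-1.32) and Il33 (-1.18), the chemokines Cxcl1 (-1.69) and Cxcl12 (-1.41), and the secreted acute phase proteins Saa3 (-1.91) and Lcn2 (-1.51). Cxcl1 stood at 6.39 and 6.54 in SSEA1+ cells, against 7.32 and 8.99 in Thy- cells (SE 0.28, adjusted p = 0.00181). Il6 was dim in both fractions, between 2.92 and 4.31, and its adjusted p was 0.0471. Of 19 immediate early and MAPK feedback genes, Egr2 (-1.50) and Ier3 (-1.12) were lower and 0 were higher. Of 23 genes of the p53 and Ink4/Arf barrier and D cyclins, the cyclin-dependent kinase inhibitors Cdkn2b (-1.11) and Cdkn1c (-1.14) were lower and 0 were higher. Cdkn1c was also the 1 changed gene among 16 imprinted genes.

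Genes for mitosis and DNA replication had broadly positive differences. All 23 measured mitosis genes were above Thy- cells on both days, with 5 changed in the mean of the days and a median difference of 0.83. Of all 11807 genes, 5122 were above Thy- cells on both days. Plk1, a kinase of mitotic entry, stood at 8.93 and 8.88 in SSEA1+ cells, against 7.85 and 7.34 in Thy- cells (1.31, SE 0.14, adjusted p = 8.67e-05). The checkpoint genes Bub1b and Mad2l1, the kinase gene Aurka and the activator gene Cdc20 were the other 4, by 1.00 to 1.18. Of 30 replication genes 29 were above Thy- cells on both days (median 0.74), and Mcm10, Gins1 and Cdc45, which serve the replicative helicase, were changed (1.13, 1.15 and 1.08). On day 12 alone 12 of the 23 mitosis genes and 12 of the 30 replication genes were higher, and on day 9 alone 1 and 0 were. The difference was therefore broad and mostly under 2-fold.

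In metabolism, Gldc and Gcat, enzymes of glycine and threonine use, were higher (1.12 and 1.08) among 9 genes of that pathway, and 0 were lower. Dnmt3l was the 1 changed gene of 11 in DNA methylation (1.00, SE 0.28, adjusted p = 0.0339). By limma 0 genes changed in the lists for interferon response, germline, chromatin regulators, glycolysis, oxidative phosphorylation, ribosome biogenesis and housekeeping. At an unadjusted p under 0.05 these lists had 2 higher and 4 lower of 16, 4 and 0 of 21, 8 and 0 of 26, 2 and 1 of 19, 3 and 0 of 27, 9 and 0 of 18, and 0 and 0 of 9, against 1683 higher and 1320 lower of all 11807 genes. The median difference of the housekeeping genes was 0.02.

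Markers of other cell types were read for what else the fractions could hold. Of 10 fibroblast markers 5 were lower and 0 higher, and their mean level was 8.26 on day 9 and 7.69 on day 12 in SSEA1+ cells, against 9.05 and 9.20 in Thy- cells and 10.58 and 10.49 in Thy+ cells. Of 9 markers of pluripotent cells 4 were higher and 0 lower, with mean levels of 5.652 and 8.549 in SSEA1+ cells and 4.955 and 7.002 in Thy- cells. Of 18 epidermal markers the desmosomal gene Pkp1 (1.69) and Krtdap (1.12) were higher and 0 were lower. Their defining keratins Krt5 and Krt14 lay between 4.71 and 6.40 on all 4 arrays. Of 6 adipocyte markers Cebpa, Fabp4 and Lpl were lower (-1.40, -1.68 and -1.08), and another Fabp4 probe set had the opposite sign. Among 16 neural markers Nefl (1.56) and Stmn2 (1.35) were higher and 0 lower, among 15 endoderm markers Foxa1 (-1.43) and Dab2 (-2.12) were lower and 0 higher, among 14 trophoblast markers Elf5 (1.42) was higher and 0 lower, and among 14 endothelial markers Plvap (-1.30) was lower and 0 higher. By limma 0 of 20 muscle, 19 macrophage and blood, and 7 erythroid markers changed, with 2 higher and 2 lower, 0 and 0, and 1 and 0 at an unadjusted p under 0.05. On day 12 alone, 4 endoderm markers were lower and 0 higher (Foxa1, Foxa2, Gata6 and Dab2), 2 neural markers were lower and 1 higher, 2 trophoblast markers were lower and 1 higher, and 2 muscle markers were lower and 0 higher. Ptprc, the pan-leukocyte gene, lay between 2.86 and 3.41. The part of other cell types in the results above was not tested.

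The differences were then placed on the axis between MEFs and iPS cells. Of the 79 genes higher in SSEA1+ cells, 62 (78.5%) were higher in iPS cells than in MEFs, where 15.4% of all genes were. The 62 made 3.4% of all genes higher in iPS cells. Of the 316 lower genes, 270 (85.4%) were lower in iPS cells, where 15.3% of all genes were, and these made 14.9% of that list. An index of each array was formed over the 3631 genes (30.8%) changed between iPS cells and MEFs, with the MEF mean at 0 and the iPS mean at 1. Over genes higher in iPS cells it stood at 0.513 on day 9 and 0.617 on day 12 in SSEA1+ cells, against 0.376 and 0.418 in Thy- cells and 0.145 and 0.0871 in Thy+ cells. Over genes lower in iPS cells it stood at 0.570 and 0.642 in SSEA1+ cells, against 0.401 and 0.371 in Thy- cells. Over the 12 SSEA1+ and Thy- arrays of days 3 to 12 the index averaged 0.458 in SSEA1+ cells and 0.331 in Thy- cells for the higher genes, a difference of 0.127, and 0.515 and 0.360 for the lower genes, a difference of 0.155. Both had p = 0.0139 in an exact two-sided permutation of labels within days, the smallest p that test can give. The late arrays alone are too few for such a test, so this p covers days 3 to 12 together and not the late days by themselves.

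**Figure D4:**
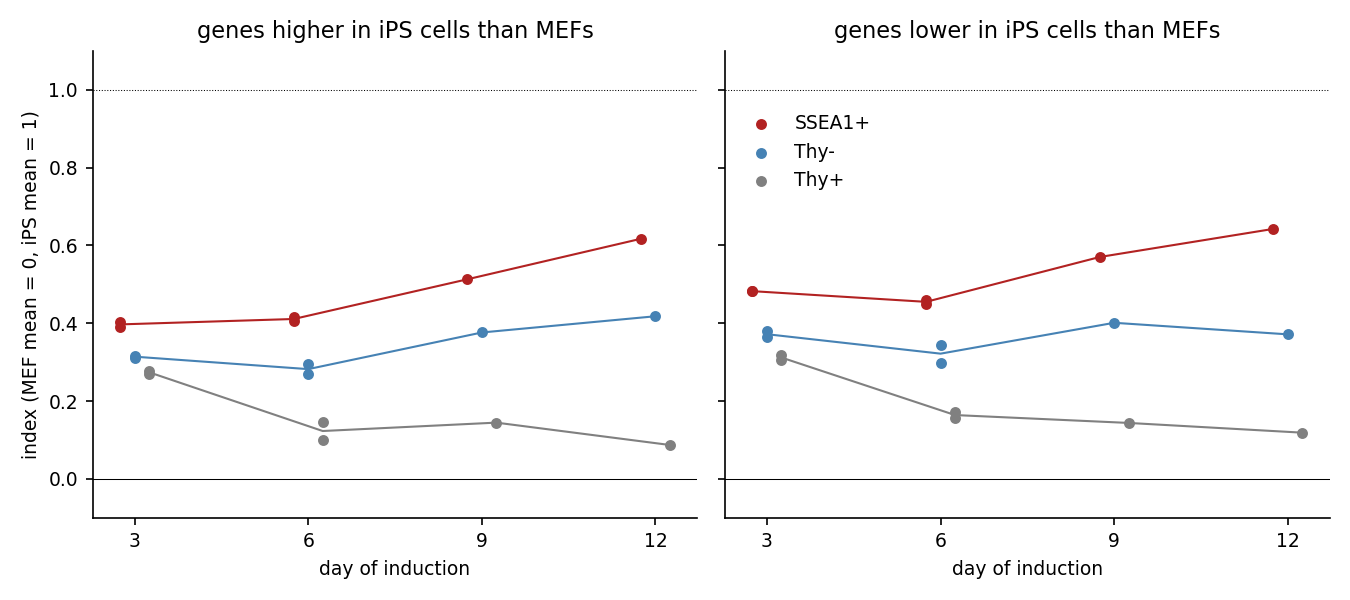
Index of each SSEA1+ (red), Thy- (blue) and Thy+ array (grey) between the MEF mean (0) and the iPS mean (1) by day of induction, over genes higher (left) and lower (right) in iPS cells than in MEFs; lines join the means. On day 12 SSEA1+ cells stand at 0.617 and 0.642, Thy- cells at 0.418 and 0.371.

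Some changed genes lay off that axis. Of the 79 higher genes, 17 had a late SSEA1+ mean at least 2-fold above both the iPS and the MEF mean (21.5%, against 2.26% of all genes). This share is a description, since the same late arrays chose the genes. Krt6b, a keratin of stratified epithelium, stood at 4.84 and 6.66 in SSEA1+ cells, against 3.55 and 3.33 in Thy- cells (2.31, SE 0.14, adjusted p = 8.61e-07), and iPS cells averaged 3.14 and MEFs 3.08. Day 12 GFP+ cells read 3.57 for Krt6b. Fetub, a secreted protease inhibitor, averaged 9.34 in late SSEA1+ cells, 7.37 in late Thy- cells, 6.19 in iPS cells and 4.57 in MEFs. Pkp1 averaged 9.29 and 7.59 in late SSEA1+ and Thy- cells, against 4.65 in iPS cells and 4.14 in MEFs.

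On the other side, 43 of the 316 lower genes had a late Thy- mean at least 2-fold above both end points (13.6%, against 2.76% of all genes, with the same limit). Aox3, an aldehyde oxidase, had the most negative difference of the 11807 genes in the mean of the days, with 5.68 and 4.92 in SSEA1+ cells, against 8.00 and 8.63 in Thy- cells (-3.02, SE 0.27, adjusted p = 2.49e-05). For Aox3 iPS cells averaged 3.51, MEFs 4.80 and late Thy+ cells 8.96. Fmo1, a flavin monooxygenase that oxidises drugs, averaged 6.34 in late SSEA1+ cells, 8.81 in late Thy- cells, 10.28 in late Thy+ cells and 5.36 in MEFs. The 43 also held genes of complement and the acute phase, named here after their values were seen: C1ra, C1s1 and C4b differed by -1.52, -1.41 and -1.45, Lbp by -1.67 and Serpina3n by -1.58. For each of these 5 the late Thy+ mean was higher than the late Thy- mean. A late Thy- mean above that of MEFs was a condition for being among the 43. Saa3, an acute phase gene also among the 43, had a late Thy+ mean of 7.14, below its late Thy- mean of 7.46.

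The difference between the fractions itself changed from day 9 to day 12 for 18 genes (0.152%), 3 upwards (0.0254%) and 15 downwards (0.127%). The count was 43 without the Day6_Thy+ M2 array in the fit and 2 without the dimmest genes. Foxa1, a pioneer factor of endoderm and other epithelia, stood at 3.87 in SSEA1+ cells and 3.96 in Thy- cells of day 9, and at 4.09 and 6.86 on day 12 (day 12 minus day 9 difference -2.69, SE 0.30, adjusted p = 0.0018). Spink1, a secreted trypsin inhibitor, stood at 4.36 and 4.12 on day 9 and at 6.18 and 9.48 on day 12 in SSEA1+ and Thy- cells (-3.54, SE 0.48, adjusted p = 0.00898). Vtn, the adhesion protein vitronectin, stood at 4.19 and 3.86 on day 9 and at 4.62 and 6.99 on day 12 (-2.70, SE 0.31, adjusted p = 0.0018). In all 3 genes the day 12 Thy- array was the highest of the 24. For Spink1 the day 12 SSEA1+ array was also above both day 9 arrays, and the highest of the other 20 arrays read 7.21.

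Bmp7, a BMP ligand, had a change of -2.34, the corticosteroid enzyme genes Hsd11b2 and Hsd11b1 of -2.28 and -2.12, the receptor gene Aplnr of -2.14, the homeobox gene Msx3 of -2.06, the neuronal gene Nsg2 of -2.05, and AW112010 of -2.45. For 11 of the 18 genes the day 12 Thy- array was the highest of all 24, as it was for 150 of the 11807 genes. The share among the 18 is a description, since the same array helped to choose them. On that array 14 genes stood at least 2-fold above every other array, among them Foxa1, the neural crest factor Pax3, the neural zinc finger gene Myt1, the neurofilament gene Nefm, the radial glia gene Fabp7, the Wnt antagonist Dkk1 and the trophoblast gene Tpbpa. These 7 were named after their values were seen. The same count was 0 on the day 9 Thy- array, 2 on the day 12 SSEA1+ array and 0 on the day 9 SSEA1+ array. Over the whole lists, the mean level on day 12 was 5.20 in SSEA1+ cells and 5.68 in Thy- cells for 15 endoderm markers, 6.19 and 6.33 for 16 neural markers and 5.33 and 5.39 for 14 trophoblast markers. Other endoderm markers such as Afp and Sox17 stayed at 4.14 and 3.97 on the day 12 Thy- array. The day 12 Thy- group is 1 array, so its own spread is unknown.

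**Figure D5:**
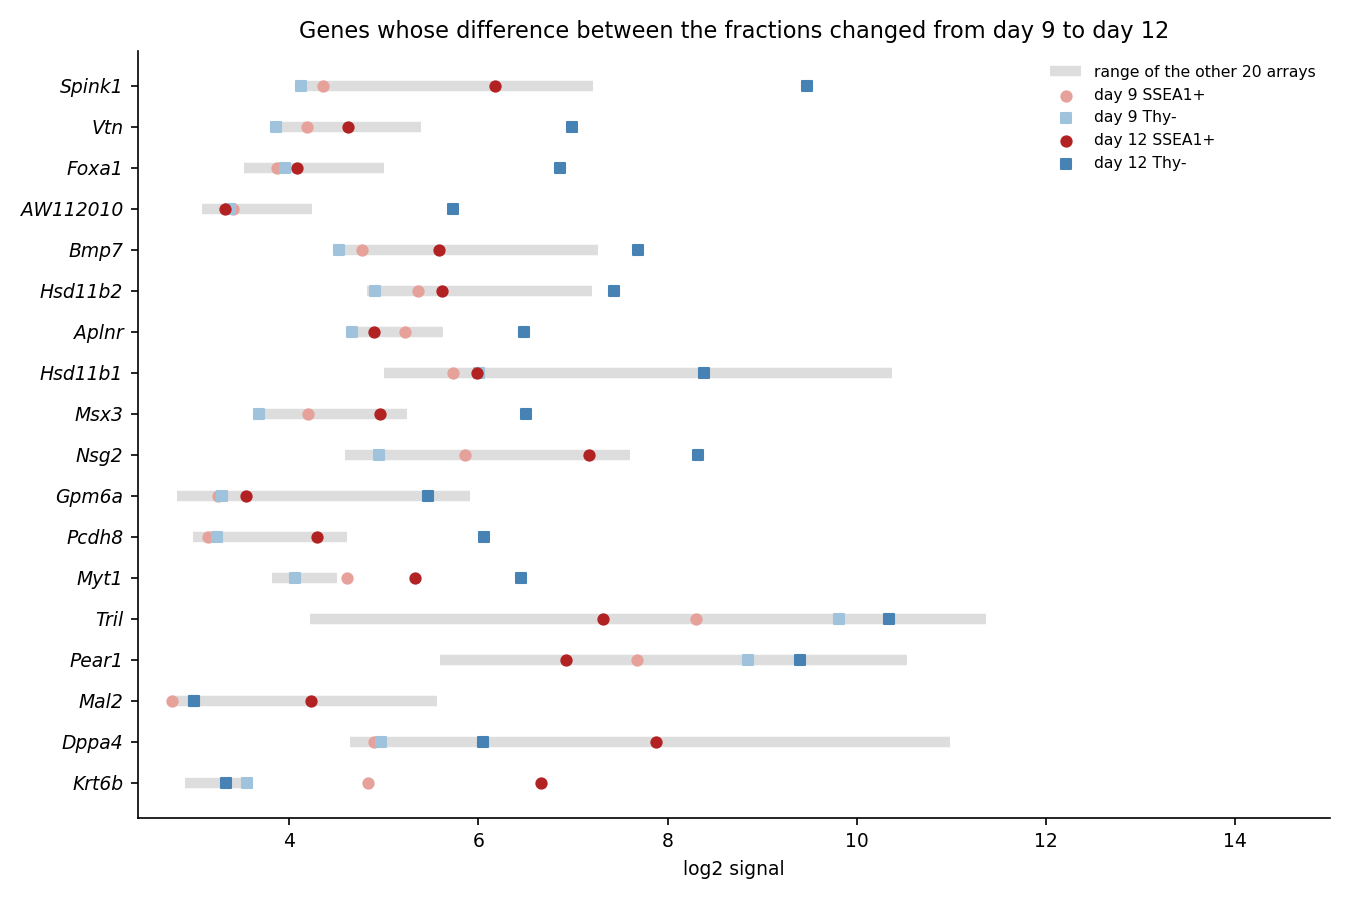
Log2 signal of the 18 genes whose difference between SSEA1+ (circles) and Thy- cells (squares) changed from day 9 (pale) to day 12 (dark); grey bars span the other 20 arrays. For Spink1, Vtn, Foxa1 and AW112010 the dark square lies beyond the grey bar, and for Krt6b the dark circle does.

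In the upward direction, Krt6b (2.05, adjusted p = 0.00898), Dppa4 (1.89, adjusted p = 0.0449) and Mal2 (1.46, adjusted p = 0.0449), a gene of apical transport in epithelia, gained a larger excess in SSEA1+ cells. Dppa4, the partner of Dppa2, stood at 4.90 in SSEA1+ cells and 4.97 in Thy- cells of day 9, and at 7.88 and 6.05 on day 12. Mal2 was dim, at 2.76 and 2.99 on day 9 and 4.23 and 3.00 on day 12.

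The late difference was last compared with that of days 3 and 6, where each fraction had 2 arrays a day. The early difference had 56 changed genes (0.474%: 30 higher, 0.254%, and 26 lower, 0.22%), and 50 genes had a late difference unlike the early one (0.423%), 21 upwards and 29 downwards. The count of 50 was 100 without the Day6_Thy+ M2 array. It lay between 24 and 32 when Day3_SSEA1+ M3, Day3_Thy- M2, Day3_Thy- M3, Day6_SSEA1+ M2 or Day6_Thy- M2 was left out. Nr0b1 was already apart early, by 1.04 (SE 0.10, adjusted p = 0.000163), and its difference grew by 1.95 (SE 0.18, adjusted p = 0.000213). Nr5a2 (early 0.34, adjusted p = 0.235) and Cldn7 (early -0.11, adjusted p = 0.895) did not pass the test early, and their differences grew by 2.09 (adjusted p = 0.00375) and 2.11 (adjusted p = 0.0195). Zic2, a zinc finger factor of neural tissue and epiblast, and the epidermal lipoxygenase gene Alox12b grew by 1.75 and 1.65, Esrp1 and the keratinocyte kinase gene Ripk4 by 1.55 each, and the trophoblast and gland factor Elf5 by 1.39. In the other direction, Mmp2 was early lower by 0.89 (adjusted p = 0.00303) and its difference moved by a further -1.54 (SE 0.26, adjusted p = 0.0185). The nuclear receptor gene Nr2f1 moved by -1.73 and Fmo2 by -1.70, with another Fmo2 probe set of opposite sign. Fut9 was apart early by 2.03 (adjusted p = 2.96e-05), a larger value than the late 1.69.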

How the data were processed

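The authors' deposited log2 signals per probe set, from RMA according to the submitters' processing notes, entered unchanged; the RMA version is not given in the sources used here. Of 22716 probe sets 18003 had 1 gene symbol in the array annotation, 287 had several and 4426 none (90 controls included). Symbols were checked against RefSeq through gene IDs, and 0 differed. The brightest probe set on average represented each of 11807 genes, and no arrays held identical values. Of the 395 genes called in the mean of the late days, 155 had several probe sets. In 125 of these all probe sets had one sign, and in the rest at least 1 had the opposite sign.

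Contrasts were taken with limma 3.58.1 (R 4.3.3) from 1 fit of all 24 arrays with 15 group means (9 residual and 4.68 prior degrees of freedom). p-values were adjusted by Benjamini-Hochberg over all genes, and a gene was called at an adjusted p under 0.05 and at least 2-fold. Genes named for size were the 10 of largest difference in each direction among those called, for the mean of the late days only those at least 2-fold in one direction on both days; members of the gene lists were named regardless. The members and lists were chosen with earlier results of these data known, from general knowledge of the field. For the index, the distance of an array from the MEF mean was summed over genes called in iPS minus MEF and divided by the same sum for the iPS mean.

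On simulated data over 11807 genes, 92% of genes changed by a log2 value of 1.5 were recovered in the mean of the late days, 74% on day 9 and 75% on day 12, with 0 in the wrong direction. Calls among the unchanged genes numbered 8, 10 and 6 in that order. The simulated noise took each gene's spread from the fit, and the change was the same on both days. It therefore could not test whether the lone arrays vary as the replicated groups did. The number of arrays limits the precision. Alternatives were no minimum fold, no dim genes (lowest 25%), other scaling, the mean of probe sets, another variance prior, a replicate block, fewer arrays in the fit and arrays left out. Other steps used Python 3.11.15 (pandas 2.3.3, numpy 2.4.6, matplotlib 3.10.9).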

Additional observations from a re-analysis of the deposited data

Results flagged for a closer look

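The difference between SSEA1+ and Thy- cells was tested for a change from day 9 to day 12, and 18 genes passed. The difference grew upwards for Krt6b (2.05), Dppa4 (1.89) and Mal2 (1.46). It moved downwards for Spink1 (-3.54), Vtn (-2.70), Foxa1 (-2.69), AW112010 (-2.45), Bmp7 (-2.34), Hsd11b2 (-2.28), Aplnr (-2.14), Hsd11b1 (-2.12), Msx3 (-2.06) and Nsg2 (-2.05), all log2 values. The mean difference of days 9 and 12 was also tested against that of days 3 and 6, and 50 genes passed. It was larger late for Krt6b (2.19), Cldn7 (2.11), Nr5a2 (2.09), 2610528A11Rik (1.98), Nr0b1 (1.95), Zic2 (1.75), Alox12b (1.65), Ripk4 (1.55), Esrp1 (1.55) and Elf5 (1.39). It was more negative late for Pcdha1 (-1.89), Nr2f1 (-1.73), Fmo2 (-1.70), Spink1 (-1.67), Aox3 (-1.64), Egfl6 (-1.64), Mmp2 (-1.54), Arhgef3 (-1.52), Ifi205 (-1.50) and Foxa1 (-1.49). The named genes are the 10 of largest change in each direction, or all where fewer passed.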

How the results depend on the processing

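Of the called genes of all comparisons, 3 changed direction under an alternative: leaving out 1 day's pair gave -3.30 to 0.24 for Spink1, -2.37 to 0.33 for Vtn and -2.41 to 0.038 for AW112010, each positive without the day 12 pair, against -1.53, -1.02 and -1.19 in the mean of the days. Of the lists, the Hox genes turned to 1 higher and 0 lower without the day 12 pair, and neural and trophoblast markers to 1 higher and 2 lower without the day 9 pair, as neural markers did to 2 higher and 3 lower with no minimum fold. The count of 395 genes in the mean of the late days lay between 339 and 419 under all alternatives but 2: it was 1187 with no minimum fold, and leaving out 1 day's pair gave 112 to 487, the lower value without the day 12 pair. Day 9 had 284 genes (main 112) with only SSEA1+ and Thy- arrays in the fit, 238 without the Day6_Thy+ M2 array and 179 without the iPS arrays. The change from day 9 to day 12 had 2 genes (main 18) without the dimmest genes, 8 with each array's median subtracted, 72 with only SSEA1+ and Thy- arrays and 43 without Day6_Thy+ M2. The change from the early difference had 28 genes (main 50) without the dimmest genes, 123 with only SSEA1+ and Thy- arrays and 100 without Day6_Thy+ M2, and 24 to 50 with 1 early array left out. The dim-gene alternative tests fewer genes, and other causes were not tested. With a replicate block the counts were 392, 86, 470, 10 and 42 in the order late mean, day 9, day 12, day 9 to day 12 and early to late. The labels give no pairing beyond a shared number, and whether same-numbered arrays were paired is not known. Deviations of same-numbered arrays correlated between -0.207 and 0.214 in 21 pairs of groups, 5 of them over 0.1. Over all called genes and alternatives, values that kept their side of the threshold and values that fell short of it numbered 4898 and 595 in the late mean, 1002 and 101 on day 9, 4656 and 154 on day 12, 130 and 40 from day 9 to day 12, and 690 and 193 from early to late. List counts under the alternatives, chosen after seeing the data, moved by over 1.5 times in 87 of 518 cases. The index differences were 0.0946 to 0.144 and 0.129 to 0.168 under all alternatives. For dim genes such as Mal2 and Il6 the signal limits the precision.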
